A study of Mus musculus with 6 samples.

Results

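Macrophages are phagocytic leukocytes, and mesenchymal cultures started from embryos can hold some of them beside the fibroblasts. They live on the growth factor CSF1, take up particles through Fc, complement and scavenger receptors, and are set up by the transcription factor PU.1. Their usual markers include the surface protein CD45, the C1q subunits and the M form of lysozyme. The genes described here are 32 such markers, all 32 of which were measured, out of 19856 genes tested. They were chosen by name from a list of macrophage genes, with earlier results of these data known. Each was matched by symbol in the platform table, through 1 probe set with a single gene symbol.

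The series compared mouse embryonic fibroblasts in 6 samples. A tetraploid line, called transformed in the series title and labelled as abnormal in DNA content, gave 3 of them, and a diploid line, the normal control, gave the other 3. Both lines were grown in DMEM with fetal bovine serum to near confluence, and their total RNA was hybridised to whole-transcript arrays. Since 1 line stands for each ploidy, an effect of ploidy, of transformation or of the line itself cannot be told apart. Separate cultures are not named in the labels, so the p-values measure only the spread between these samples, which may be technical. Strain, embryo age and passage are not given in the labels.

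Values are log2 signals as deposited. On each array 87 to 129 probe sets stood at the floor of 0.00, among them Lyz1 and Adgre1 on tetraploid array 1. Precision is limited by the number of arrays. The 95th percentile of 1015 olfactory receptor genes, which are mostly silent outside the nose, served as the background level of each array. This level was 7.18, 7.41 and 7.28 for the 3 tetraploid arrays in order and 7.23, 7.25 and 7.01 for the 3 diploid arrays. The median of all genes lay between 7.45 and 7.50 on every array. The labelled cell type was checked with 19 measured fibroblast genes, of which 18 were above background on each tetraploid array and 19 on each diploid array.

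The level of the macrophage genes differed widely among the 3 diploid samples. Their mean log2 signal was 4.64, 4.90 and 4.73 on the 3 tetraploid arrays, against 5.22, 6.21 and 7.01 on diploid arrays 1 to 3. On diploid array 3, 16 of the 32 genes were above background, against 9 on diploid array 2, 4 on diploid array 1 and 3 to 5 on the tetraploid arrays, while 51.5% to 56.9% of all genes were above it on each array. With the 99th percentile as background the counts were 7, 2, 1 and 1 to 2, so that only diploid array 3 was above the tetraploid range. With the highest of the 6 background levels used on all arrays, a choice made after seeing the data, they were 13, 6, 3 and 3 to 4. On the tetraploid arrays 26 of the 32 genes lay at or below background throughout, and 11 of the 32 were above background on at least 1 diploid array but no tetraploid one, against 5.52% of all genes. The defining markers Adgre1 and Ptprc were among the 15 genes above background on none of the 6 arrays, so the name of the list rests on the other genes. The median SD of a macrophage gene over the diploid arrays was 1.056, against 0.235 over all genes, and over the tetraploid arrays it was 0.545 against 0.345. The set of all genes was not matched in level to the macrophage genes. In bulk samples such as these, fewer cells of a type and less RNA per cell cannot be told apart.

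Diploid array 3 gave the highest and diploid array 1 the lowest of the 3 diploid values in 21 of the 32 macrophage genes, an order found in 19.3% of all genes. In 18 of the 32 that order came with a difference of at least 1 log2 between arrays 3 and 1, against 3.32% of all genes. The difference alone was reached by 19 of the 32 genes, against 5.06% of all genes, and the opposite difference by 0 of the 32, against 4.99%. Among the 1015 olfactory receptor genes that set the background, 11.3% had at least 1 log2 between arrays 3 and 1. Each diploid sample is a single array, so these orders describe the arrays and carry no test. The genes were also chosen with earlier results of these data known, so their shares are no independent support for the order. The median difference between diploid arrays 3 and 1 was 1.34 over the macrophage genes and 0.02 over all genes, and between arrays 2 and 1 it was 0.85 and -0.04. The 3 tetraploid values had no such common order: each of the 6 possible orders was found in 3 to 8 of the 32 genes.

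**Figure D1:**
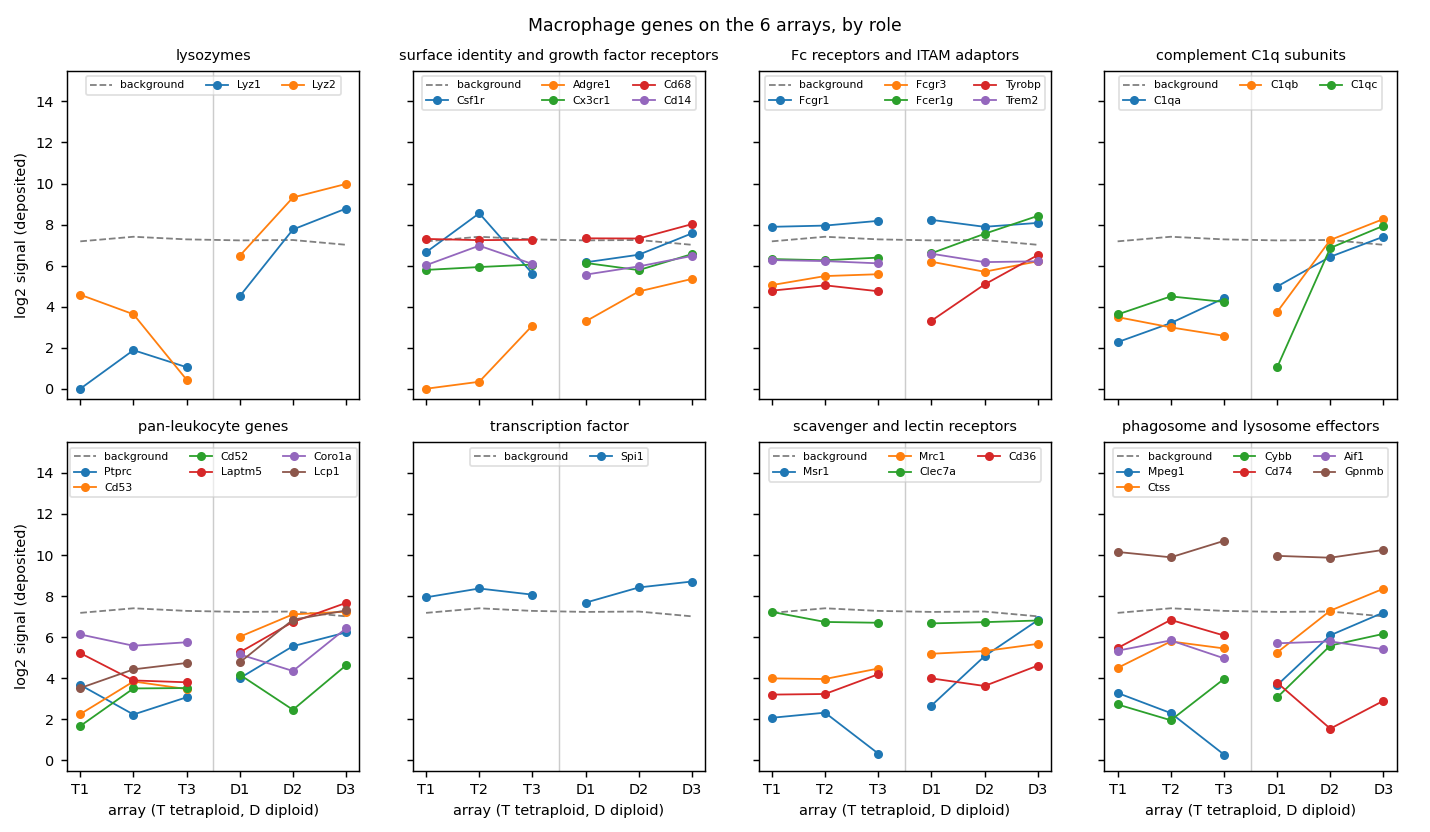
Log2 signal of the 32 macrophage genes on the 6 arrays (T1 to T3 tetraploid, D1 to D3 diploid), 1 panel per role; points are single arrays, thin lines only join the values of a gene within a line, and the dashed line is the background level of each array. Lysozyme and C1q genes lie far below background on the tetraploid arrays and reach 7.41 to 9.98 on diploid array 3, while Gpnmb, Fcgr1 and Spi1 are above background on all 6 arrays.

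The promoters of 6 genes are shown as examples. The 6 are among the 11 genes above background on a diploid array but no tetraploid one. All 11 were highest on diploid array 3, as were 39.2% of all genes. Only 5 of the 11 were also above background on diploid array 2, so the filter itself favours array 3. The sequences are the 250 bases before the transcription start in RefSeq, build GRCm38.p6, written 5′ to 3′ on the gene's own strand. Capitals mark GAGGAA on either strand (TTCCTC when read on the other), the core of sites bound by PU.1 and shared by other ETS factors.
C1qb: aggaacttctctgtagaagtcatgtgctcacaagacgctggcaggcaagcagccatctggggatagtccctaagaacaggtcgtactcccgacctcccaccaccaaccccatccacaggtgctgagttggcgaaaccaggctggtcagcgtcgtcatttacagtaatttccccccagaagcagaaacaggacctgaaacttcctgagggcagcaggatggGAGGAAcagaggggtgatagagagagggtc
C1qc: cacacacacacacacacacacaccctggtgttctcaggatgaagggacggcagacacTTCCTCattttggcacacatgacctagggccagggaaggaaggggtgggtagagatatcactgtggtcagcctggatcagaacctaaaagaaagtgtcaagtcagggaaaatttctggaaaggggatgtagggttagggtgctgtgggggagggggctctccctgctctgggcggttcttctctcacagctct
Ctss: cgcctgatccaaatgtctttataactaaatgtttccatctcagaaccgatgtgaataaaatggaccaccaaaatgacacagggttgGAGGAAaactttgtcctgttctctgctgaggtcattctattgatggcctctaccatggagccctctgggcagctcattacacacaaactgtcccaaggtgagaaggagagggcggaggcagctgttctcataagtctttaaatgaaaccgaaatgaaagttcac
Laptm5: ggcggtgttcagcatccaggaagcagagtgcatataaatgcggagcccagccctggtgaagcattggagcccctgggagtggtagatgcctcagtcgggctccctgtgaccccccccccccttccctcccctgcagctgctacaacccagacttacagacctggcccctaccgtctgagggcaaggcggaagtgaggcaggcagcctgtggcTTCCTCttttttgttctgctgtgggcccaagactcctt
Lyz1: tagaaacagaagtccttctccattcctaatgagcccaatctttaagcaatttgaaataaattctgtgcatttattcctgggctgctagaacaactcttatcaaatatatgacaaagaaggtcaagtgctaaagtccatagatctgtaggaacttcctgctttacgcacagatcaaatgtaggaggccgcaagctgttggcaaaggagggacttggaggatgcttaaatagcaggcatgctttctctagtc
Lyz2: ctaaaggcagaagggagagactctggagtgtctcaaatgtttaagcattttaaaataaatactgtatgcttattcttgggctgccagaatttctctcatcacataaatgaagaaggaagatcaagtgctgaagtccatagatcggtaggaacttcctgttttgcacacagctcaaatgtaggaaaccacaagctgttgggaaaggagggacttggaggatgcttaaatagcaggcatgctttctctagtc

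These windows lie at chr4:136886201-136886450 (minus strand) for C1qb, chr4:136892915-136893164 (minus strand) for C1qc, chr3:95526536-95526785 (plus strand) for Ctss and chr4:130913066-130913315 (plus strand) for Laptm5. Those of Lyz1 and Lyz2 lie at chr10:117292869-117293118 and chr10:117282273-117282522, both on the minus strand. The first base of the marked motif stood 30 bases before the start in C1qb, 193 in C1qc, 164 in Ctss and 38 in Laptm5. In windows of 300 bases, which also take in 50 bases after the start, GAGGAA on either strand was found for 14 of the 23 macrophage genes in the promoter table (60.9%) and for 31.3% of its 27025 genes. The printed windows of Lyz1 and Lyz2 do not hold it. The Lyz1 and Lyz2 windows were alike, with 200 identical positions in an alignment of 252 columns (79.4%), whereas those of C1qb and C1qc matched in 129 of 292 columns (44.2%). A match to these letters is a description of the sequence, not a binding site.

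Lysozymes, which cut bacterial cell walls, gave the largest difference between the lines. Lyz2, the M form typical of macrophages, stood at 4.58, 3.63 and 0.44 in the tetraploid line and at 6.48, 9.32 and 9.98 in the diploid line, in the order of arrays 1 to 3 as in all values below. All diploid values were above all tetraploid ones, yet diploid array 1 was itself below background. Lyz2 fell by 5.71 ± 1.26 (SE) log2 in the tetraploid line and was at least 2.47-fold lower there (limma adjusted p = 0.0290), the bound being the diploid mean over the tetraploid background. Lyz1, the form known from Paneth cells of the gut, stood at 0.00, 1.88 and 1.05 in the tetraploid line and at 4.51, 7.76 and 8.78 in the diploid line. It fell by 6.04 ± 1.07 (SE) log2 in the tetraploid line (limma adjusted p = 0.0148), with the floor value of 0.00 taken as a measurement. Its diploid mean of 7.02 lay below the tetraploid background, so no fold is given. With values raised to the background level of each array, the differences were -0.63 for Lyz1 (limma adjusted p = 0.238) and -1.56 for Lyz2 (limma adjusted p = 0.0794). The genes are neighbours with 0 tested genes between them, they are close paralogs, and whether their probe sets read each other's transcripts was not tested. The call of Lyz1 ended without diploid array 2 (limma adjusted p = 0.0591), and that of Lyz2 without tetraploid array 2 or 3 or diploid array 2 or 3 (highest limma adjusted p = 0.0970).

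The C1q subunits, which form the recognition part of the first complement component and are made mainly by macrophages, also had their highest values on diploid array 3. C1qa stood at 2.27, 3.20 and 4.41 in the tetraploid line and at 4.98, 6.43 and 7.41 in the diploid line. C1qb stood at 3.49, 2.99 and 2.58 in the tetraploid line and at 3.74, 7.25 and 8.27 in the diploid line, where array 2 was just above the background level. C1qc stood at 3.62, 4.50 and 4.23 in the tetraploid line and at 1.04, 6.86 and 7.94 in the diploid line. Within the diploid line all 3 genes were lowest on array 1, where they were below background and C1qc was below its tetraploid values. From diploid array 2 to array 3 the differences were 0.98, 1.01 and 1.07 log2 in C1qa, C1qb and C1qc, and only C1qb was above background on array 2. C1qa fell in the tetraploid line by 2.98 ± 0.73 (SE) log2 (limma adjusted p = 0.0399). C1qb differed by -3.40 ± 1.07 (SE) log2, with all diploid values above all tetraploid ones, and did not pass the limma test (adjusted p = 0.0819), nor did C1qc (-1.16 ± 1.64, adjusted p = 0.696). Both passed without diploid array 1 (limma adjusted p 0.00496 and 0.0145), and the differences among the 3 subunits were not tested. The call of C1qa ended in 4 of the 6 fits without 1 array, those without tetraploid array 1 or 2 or diploid array 2 or 3 (highest limma adjusted p = 0.119), and under quantile normalization (limma adjusted p = 0.0508). With values raised to background its difference was -0.01.

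**Figure D2:**
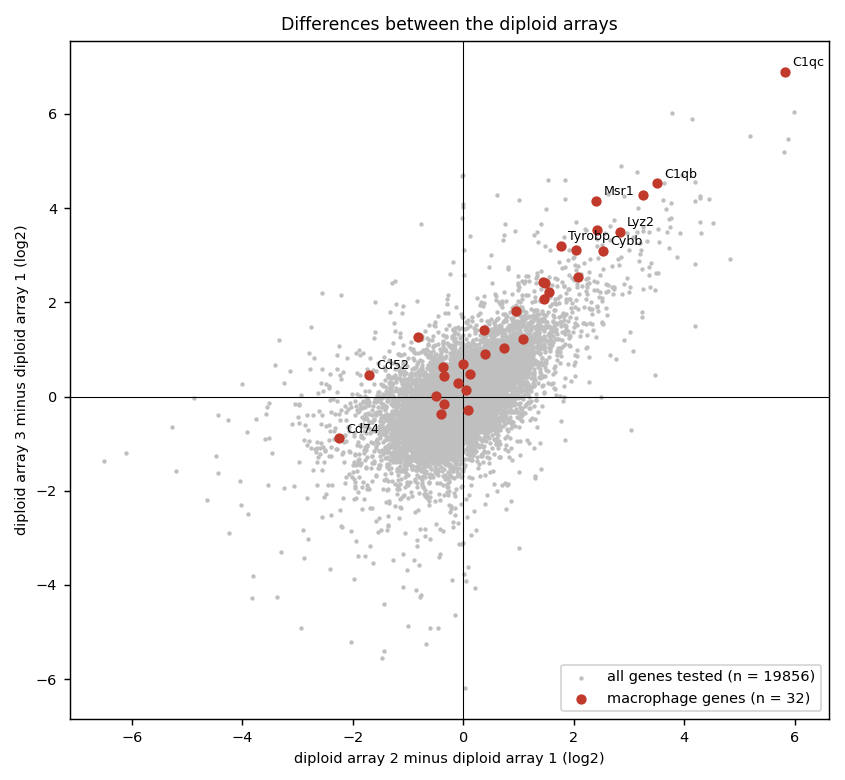
Difference between diploid arrays 2 and 1 (x axis, log2) against that between arrays 3 and 1 (y axis, log2), for all 19856 genes (grey) and the 32 macrophage genes (red, some named); array 1 enters both axes, which by itself slants the grey cloud. C1qc lies at 5.83 and 6.90 and C1qb at 3.52 and 4.53, and the macrophage genes reach at least 1 on the y axis in 19 of 32 cases.

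Genes of leukocytes in general followed the same arrays in part. Cd53, a tetraspanin of the leukocyte surface, stood at 2.25, 3.84 and 3.47 in the tetraploid line and at 6.02, 7.11 and 7.24 in the diploid line. It fell by 3.60 ± 0.50 (SE) log2 in the tetraploid line (limma adjusted p = 0.00689) and was called in all 6 fits without 1 array (limma adjusted p 0.0120 to 0.0333), although it was above background only on diploid array 3. Ptprc, which encodes the phosphatase CD45 found on nucleated blood cells, stood at 3.67, 2.23 and 3.07 against 4.0, 5.56 and 6.23 and was below background on all 6 arrays (limma adjusted p = 0.0529). Laptm5, a lysosomal protein of blood cells, stood at 5.22, 3.89 and 3.80 against 5.26, 6.74 and 7.67 (limma adjusted p = 0.0664). Lcp1, the leukocyte plastin that bundles actin, stood at 3.52, 4.43 and 4.74 against 4.77, 6.85 and 7.30 (limma adjusted p = 0.0894). In these 4 genes the groups did not overlap, and the order of the diploid arrays was that of the lysozymes. Coro1a, an actin regulator, and the small surface protein gene Cd52 were instead lowest on diploid array 2, at 4.35 and 2.46, and were below background on all 6 arrays.

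Receptors and adaptors of macrophages were divided. Fcer1g, the signalling chain of several Fc receptors, stood at 6.32, 6.26 and 6.39 in the tetraploid line and at 6.60, 7.55 and 8.42 in the diploid line, where only array 1 was below background. Its diploid mean lay 1.18-fold above the tetraploid background, and the gene did not pass the limma test (adjusted p = 0.117). Tyrobp, the adaptor DAP12, stood at 4.78, 5.04 and 4.75 against 3.31, 5.08 and 6.51, so that diploid array 1 was below the tetraploid arrays and array 3 above them. Csf1r, the receptor for CSF1 on which macrophages depend, had its highest value in the tetraploid line. It stood at 6.65, 8.55 and 5.61 in the tetraploid line and at 6.16, 6.53 and 7.57 in the diploid line, above background on tetraploid array 2 and diploid array 3 (limma adjusted p = 0.905). Adgre1, which encodes a surface receptor used to define mouse macrophages, stood at 0.00, 0.34 and 3.08 against 3.28, 4.74 and 5.35 and was below background on all 6 arrays (limma adjusted p = 0.0516). The IgG receptor gene Fcgr3, the microglial receptor gene Trem2, the fractalkine receptor gene Cx3cr1 and the lipopolysaccharide receptor gene Cd14 were also below background throughout, at 5.05 to 6.97.

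Cd68, a protein of late endosomes that fibroblasts can also make, stood at 7.30, 7.24 and 7.26 in the tetraploid line and at 7.33, 7.32 and 8.02 in the diploid line, so that 5 of its 6 values lay within 0.2 of the background level. The IgG receptor gene Fcgr1 was above background on all 6 arrays, at 7.89, 7.95 and 8.18 against 8.23, 7.89 and 8.08 (limma adjusted p = 0.876). Spi1, which encodes PU.1, was above background on all 6 as well, at 7.94, 8.37 and 8.07 against 7.68, 8.42 and 8.71 (limma adjusted p = 0.808). Gpnmb, a glycoprotein of lysosomes and melanosomes that other cell types also make, had the highest level of the list, at 10.15, 9.89 and 10.69 against 9.96, 9.87 and 10.25 (limma adjusted p = 0.654). Fcgr1 and Gpnmb overlapped between the lines and differed by less than 0.4 log2 among the diploid arrays. Spi1 overlapped too, but shared the order of the diploid arrays, with 1.03 log2 between arrays 3 and 1.

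Genes of the phagosome and lysosome and of particle uptake completed the list. Ctss, the protease cathepsin S, stood at 4.50, 5.79 and 5.45 against 5.25, 7.29 and 8.36 (limma adjusted p = 0.191). Mpeg1, a pore-forming protein of phagosomes, stood at 3.28, 2.30 and 0.28 against 3.66, 6.09 and 7.20 (limma adjusted p = 0.0610). Both were highest on diploid array 3, and only Ctss was also above background on array 2. Cybb, the oxidase subunit that makes superoxide, and the scavenger receptor gene Msr1 had the same order below background, with 3.10 and 4.15 log2 between diploid arrays 3 and 1. The mannose receptor gene Mrc1 fell by 1.25 ± 0.24 (SE) log2 in the tetraploid line (limma adjusted p = 0.0190), from a diploid mean of 5.39 ± 0.25 (SD, n = 3) that was below background. Leaving out tetraploid array 2, or any single diploid array, ended its call (highest limma adjusted p = 0.0711). The microglial calcium-binding protein gene Aif1 and the fatty acid receptor gene Cd36 were below background throughout. The lectin receptor gene Clec7a reached 7.23 on tetraploid array 1 and 6.67 to 6.81 on the diploid arrays.

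Cd74, the invariant chain that loads MHC class II, went the other way. It stood at 5.47, 6.84 and 6.08 in the tetraploid line and at 3.78, 1.54 and 2.90 in the diploid line, below background on all 6. It was higher by 3.39 ± 0.60 (SE) log2 in the tetraploid line (limma adjusted p = 0.0151), a call that ended without tetraploid array 2 (limma adjusted p = 0.0508). No fold is given because neither line was above background. Of 7 measured MHC class II genes, 0 were above background on any array, 0 passed the limma test, and the list mean lay between 6.03 and 6.34.

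Across the 2 lines, limma called 5 of the 32 macrophage genes lower in the tetraploid line (Lyz1, Lyz2, C1qa, Cd53 and Mrc1), against 7.80% of all genes, and 1 higher (Cd74), against 6.15%; 26 did not pass. The median difference was -1.01 over the macrophage genes and 0.07 over all genes. The 3 diploid values were all above the 3 tetraploid values in 15 of the 32 genes, against 18.2% of all genes, and the reverse held for 1, against 19.1%. The count of lower calls depended on single arrays. Leaving out diploid array 1, 2 or 3 gave 14, 1 and 2 lower calls in turn, while calls over all genes went from 2770 to 1038, 837 and 1259. Leaving out tetraploid array 2 gave 2 lower calls, with 1596 over all genes. With values raised to the background level of each array, 0 of the 32 genes were called, while 3949 of all genes were. With a trended, robust variance 9 were called lower, among 4015 calls over all genes, but Lyz2 (limma adjusted p = 0.0726) and Mrc1 (limma adjusted p = 0.0586) were not among the 9.

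The same order of the diploid arrays was counted in the other lists. Over all genes, 19.3% had this order and 5.06% had at least 1 log2 between diploid arrays 3 and 1. Among 81 further measured macrophage genes, 26 (32.1%) had diploid array 3 highest and array 1 lowest, and 19 (23.5%) had at least 1 log2 between these arrays. Like the 32 genes, these 81 were chosen with earlier results of these data known, so they are no independent support. The list mean was 5.76 to 5.98 on the tetraploid arrays and 6.03, 6.30 and 6.62 on diploid arrays 1 to 3. Alox5ap, which activates leukotriene synthesis, stood at 3.56, 6.28 and 7.30 on the diploid arrays, the inhibitory receptor gene Lilrb4a at 4.04, 6.47 and 7.23, and the leukocyte GTPase gene Rac2 at 4.37, 6.21 and 7.13. Of the 81 genes, 7 fell in the tetraploid line (Lilrb4a, Plek, C3ar1, Ctsd, Cebpa, Runx1 and Unc93b1), 1 rose (Tlr2) and 73 did not pass the limma test, so the lower share was near the 7.80% of all genes. The order was found in 1 of 18 genes of T and NK cells, 3 of 13 of B cells, 2 of 14 of neutrophils, 0 of 11 of mast cells and basophils and 0 of 10 of dendritic cells. It was also found in 3 of 7 MHC class II genes (42.9%), 8 of 20 inflammatory factors (40%), 7 of 19 fibroblast genes (36.8%) and 3 of 9 adipocyte genes (33.3%), shares above that of the further macrophage genes. At least 1 log2 between diploid arrays 3 and 1 was reached by 14.3%, 30%, 10.5% and 0% of these 4 lists in turn. Of these shares only that of the inflammatory factors was above the 23.5% of the further macrophage genes. The list means of the 5 leukocyte types lay between 5.21 and 6.82 on all 6 arrays. Osteoclast genes, from cells of the same lineage, had the order in 2 of 10 cases, and Acp5 and Ctsk, an acid phosphatase and a collagen-cutting protease, fell in the tetraploid line. Endothelial genes had it in 3 of 14 cases, with Kdr, Emcn, Erg and Flt1 lower and Egfl7 higher in the tetraploid line by the limma test. Over all genes, 7.80% were called lower and 6.15% higher. None of the differences between lists was tested.

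Genes of secreted inflammatory factors included macrophage chemokines among those above background on diploid array 3. Ccl3, a chemokine of activated macrophages, stood at 3.35, 2.99 and 3.55 in the tetraploid line and at 4.70, 6.99 and 7.61 in the diploid line, and Cxcl2, which attracts neutrophils, stood at 4.44, 5.85 and 7.11 on the diploid arrays. Ccl5, a chemokine for T cells and monocytes, had the same diploid order, at 4.90, 5.48 and 7.08, but its tetraploid values of 8.64, 7.87 and 6.89 were mostly higher (limma adjusted p = 0.0898). Of 20 measured factors 6 fell in the tetraploid line (Il6, Ccl3, Ccl8, Cxcl2, Cxcl16 and Tgfb1), 1 rose (Il18) and 13 did not pass the limma test, beside 7.80% lower and 6.15% higher over all genes. Their mean was 4.94 to 5.32 in the tetraploid line, against 6.0, 6.62 and 6.76 in the diploid line. Among 10 genes of the CSF1 axis and chemotaxis, the receptor gene Csf2ra and the chemokine gene Ccl7 fell, Il34, the other ligand of CSF1R, rose, and 7 did not pass. The shares over all genes were again 7.80% lower and 6.15% higher. Ccl7 stood at 8.78, 8.04 and 9.64 against 10.25, 10.52 and 10.72, so the fibroblast cultures of both lines gave signal for this monocyte attractant.

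Many interferon response genes had the same order over the diploid arrays as the macrophage genes, but with other steps. Their median differences from diploid array 1 were 0.55 (array 2) and 1.36 (array 3), against 0.85 and 1.34 over the macrophage genes. The interferon mean rose more from array 2 to array 3 than from array 1 to array 2, and the macrophage mean did not. Of 28 measured, 20 (71.4%) had diploid array 3 highest and array 1 lowest, and 16 (57.1%) had at least 1 log2 between them. Over all genes these shares were 19.3% and 5.06%. The list mean was 6.37, 6.83 and 7.83 on diploid arrays 1 to 3 and 6.86, 6.33 and 6.16 on the tetraploid arrays, so tetraploid array 1 was above diploid arrays 1 and 2. In the limma test Ifi35 and Irf7 fell in the tetraploid line, Ifit2 and Irf1 rose, and 24 did not pass, which is near the 7.80% lower and 6.15% higher over all genes. Oasl2, an antiviral gene, stood at 4.48, 5.98 and 8.47 on the diploid arrays, and Ifit1 at 3.61, 5.45 and 7.81. Cell division genes also had their highest diploid mean on array 3 (8.92, 8.83 and 9.51), and lysosome genes did not (11.10, 11.10 and 10.89). The part of interferon or cell division in the order of the macrophage genes was not tested.

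**Figure D3:**
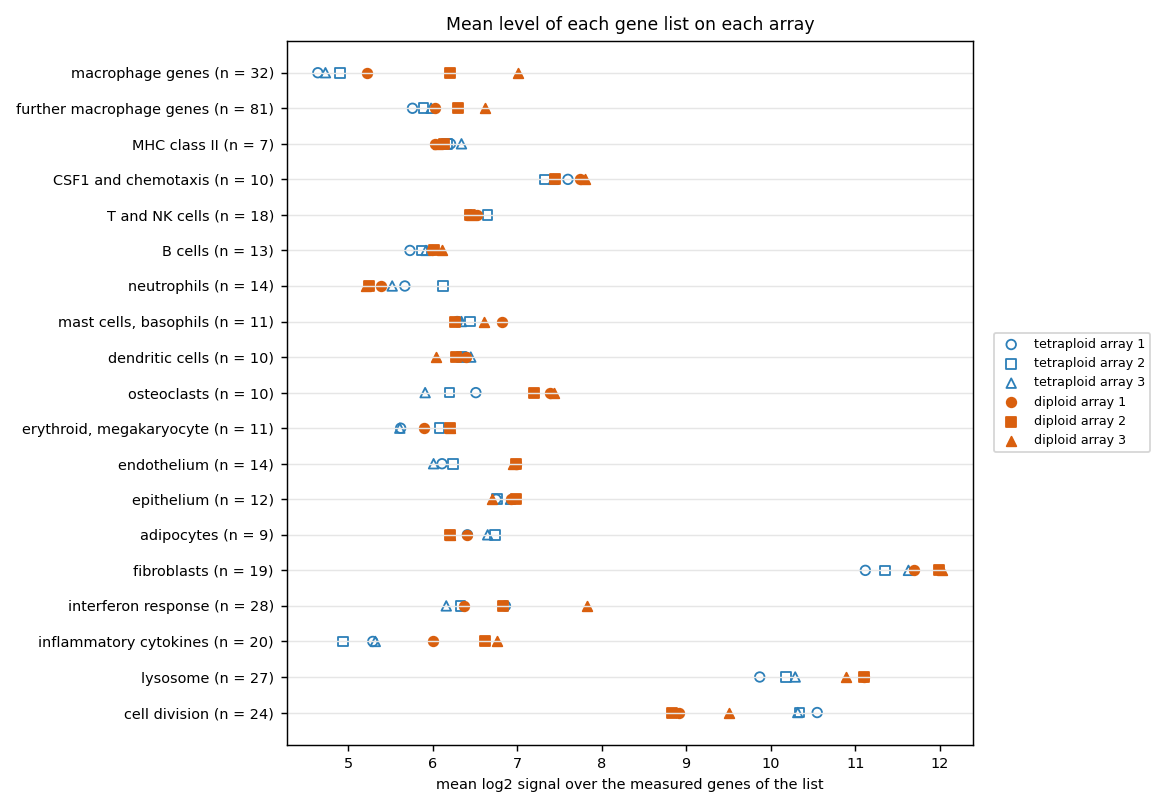
Mean log2 signal over the measured genes of each list (x axis) on each of the 6 arrays, with open blue symbols for tetraploid and filled orange symbols for diploid arrays. The macrophage mean runs from 5.22 to 7.01 over the diploid arrays and the interferon mean from 6.37 to 7.83, whereas the means of T and NK cells (6.44 to 6.52) and of B cells (5.99 to 6.11) stay close together.

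Ranked by their range over the 3 diploid arrays, 5 macrophage genes were among the first 20 of 11926 genes above background on at least 1 diploid array. C1qc was first with 6.90 log2, C1qb had rank 3 with 4.53, Lyz1 rank 5 with 4.27, Mpeg1 stood at rank 13 and Lyz2 at rank 14. Of the 20 genes, 18 had diploid array 3 highest and array 1 lowest, an order found in 21.2% of the 11926 genes. Most of the 20 were above background on diploid array 3 alone, which favours that order. Of the 20, 6 were in the interferon list (Mx2, Ifit1, Oasl2, Irf7, Xaf1 and Rtp4) and 2 in the list of further macrophage genes (Alox5ap and Lilrb4a). The 7 in no list were Lilr4b, a close paralog of Lilrb4a, Uba7 and Ifi27l2a, known as interferon-induced genes, Deptor, Aldoc, Egfl6 and 1700128E19Rik. The last of these was highest on diploid array 1, at 7.72 against 3.90 and 3.44. These genes were picked for their range, so their values are a description. They entered the ranking through a diploid array on which they were above background, and for all 5 macrophage genes the low end of the range, on array 1, was below background. The ranks and ranges there rest on differences below that level.

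**Figure D4:**
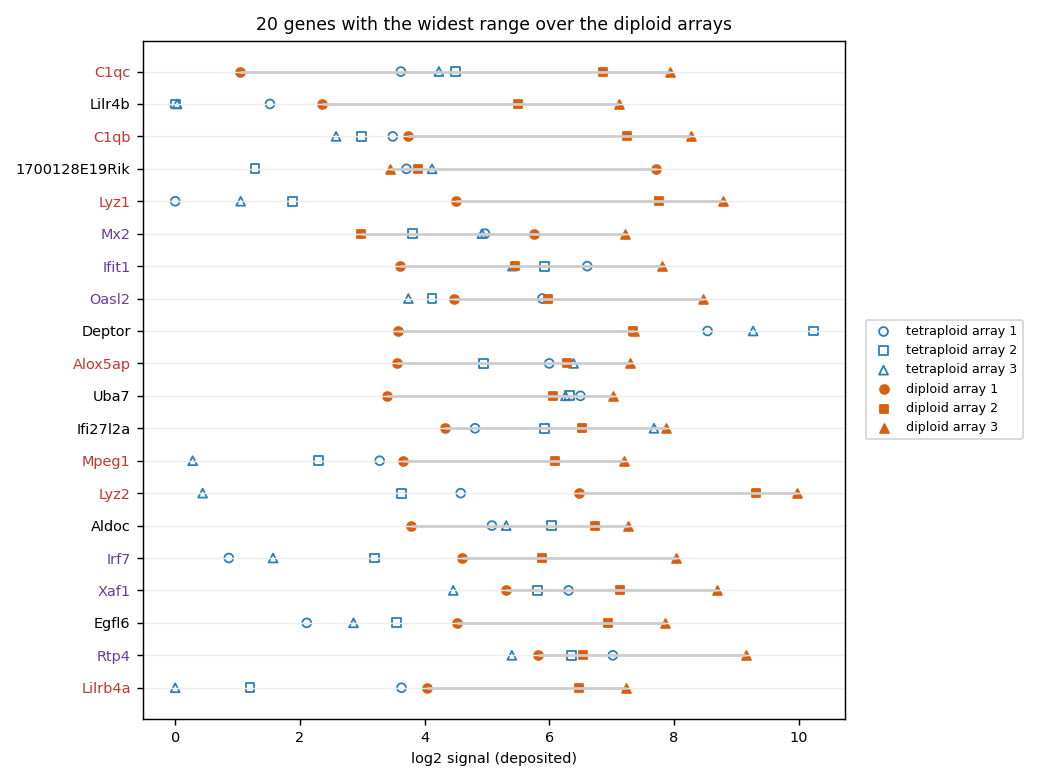
Log2 signal on the 6 arrays of the 20 genes with the widest range over the diploid arrays, with gene names in red for macrophage lists, purple for the interferon list and black otherwise; grey bars span the diploid values. Diploid array 3 is the highest and array 1 the lowest diploid value in 18 of the 20, against 21.2% of the 11926 genes ranked. Most of the 20 were above background on diploid array 3 alone, which favours that order.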

How the data were processed

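Log2 signals were used as deposited by the authors, 1 value per probe set and array. Affymetrix Expression Console is named in the submitters' processing notes, while the summarisation method is not given in the sources used here.

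Of 28944 probe sets, 21789 had 1 gene symbol in the platform table, 1621 several and 5534 none. Those in the RefSeq table (21698) gave 19856 genes, each by the probe set with the highest mean. The test between lines was limma 3.58.1 under R 4.3.3 (two-sided, Benjamini-Hochberg over all genes, called below 0.05; tested on simulated data). Named genes are all members, up to 3 per other list and the 20 with the widest diploid range; others are named where a call is listed. Promoters came from RefSeq (GRCm38.p6). Members and lists were chosen with earlier results of these data known. The background rule was taken over from that earlier work. Alternatives covered normalization, background, level filters, variance settings, a replicate block and leaving out each array.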

Additional observations from a re-analysis of the deposited data

How the results depend on the processing

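The count of 5 lower calls became 0 with values raised to background. It also became 0 with only genes whose mean was above the 25th percentile (11 of the 32 then tested). None of the 6 called genes was among those 11, so that filter itself fixed the count. The count was 9 with a trended, robust variance, 7 with array weights, 4 with quantile normalization and 1 to 14 with 1 array left out. Calls in either direction over all genes were 4015 with the trended, robust variance, 3090 with array weights and 2901 with quantile normalization. With only genes above background on at least 1 array, 7 of 17 were called lower, but 11 of the 17 passed that filter on diploid arrays alone. Under the same filter, calls in either direction were 3595 among the 12856 genes tested. The 1 higher call, Cd74, became 0 with values raised to background, under both of these filters and without tetraploid array 2 (range 0 to 1). Cd74 was below background on all 6 arrays and not among the genes tested under either filter. Only its loss without tetraploid array 2 was therefore not fixed by the setting. All genes called were 2770, 1644 with the replicate number as a block and 837 to 2532 with 1 array left out; with the block 6 macrophage genes were lower and 1 higher, and Lyz2 was not among them (adjusted p = 0.0646). Whether equal numbers pair the samples is not stated in the labels. Deviations of same-number arrays correlated at 0.101, 0.031 and -0.046 over genes, which cannot show that the samples were unpaired. With values raised to background the median difference was 0.13 (set by the background levels alone), as were those of Adgre1, Cx3cr1, Fcgr3, Tyrobp, Trem2, Ptprc, Cd52, Msr1, Mrc1, Cd36, Cybb and Aif1, while Cd53 gave 0.05, Lcp1 0.03 and Mpeg1 0.06. Uncalled genes that changed sign were Tyrobp (0.04 with quantile normalization) and, with 1 array left out, Clec7a (-0.02 to 0.25), Csf1r (-0.62 to 0.85), Gpnmb (-0.01 to 0.39), Fcgr1 (-0.15 to 0.02), Trem2 (-0.20 to 0.00), Tyrobp (-0.94 to 0.66), C1qc (-3.28 to 0.17) and Spi1 (-0.44 to 0.08). Members above background at the 90th percentile were 7 on tetraploid array 2 and 14 on diploid array 2, and at the 99th percentile 1, 2 and 1 on the tetraploid and 1, 2 and 7 on the diploid arrays; at the highest level of the 6 arrays they were 3 on tetraploid array 1. With only the 16 members above background on a diploid array, 13 had array 3 highest and array 1 lowest, against 21.2% of all genes under the same filter. All 16 passed it on array 3, which favours that order, and the median differences from array 1 were 2.43 (array 3) and 1.47 (array 2). Calls below background rest on differences that the arrays may not resolve.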
